A study of Mus musculus with 75 samples.

Results

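The chemokine ligands of the mouse are small secreted proteins that draw leukocytes into a tissue and keep them there. They bind receptors of the seven-membrane-spanning class on the migrating cell and are sorted into CC, CXC and CX3C types by the spacing of their first cysteines. Some are induced by inflammatory signals, above all through the transcription factor NF-kB or through interferon, and some are made without a stimulus by stromal cells that organise lymphoid tissue. In adipose tissue they are best known for the recruitment of monocytes during weight gain. Here the ligands were taken as every deposited gene symbol made of Ccl and a number, with or without a letter, or of Cxcl and a number, together with Cx3cl1. This gave 35 genes of 22781, which were 21 CC ligands, 13 CXC ligands and 1 CX3C ligand. A row under Scyb10, an older symbol of Cxcl10, lies outside this rule and held 39 counts over all libraries, against 4478 for Cxcl10.

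They were read in 75 RNA sequencing libraries of epididymal white fat (eWAT, a visceral depot), inguinal white fat (iWAT, a subcutaneous depot) and gastrocnemius muscle from 43 mice. The mice had the nucleus of strain C57BL6/J (written C57n) or C3H/HeN (C3Hn) and the mitochondrial DNA of either strain (C57mt, C3Hmt), so that C57n:C57mt and C3Hn:C3Hmt were the wild types and C57n:C3Hmt and C3Hn:C57mt the mitochondrial-nuclear exchange lines. All mice ate chow after weaning, and from week 6 they stayed on it or received a high-fat diet (HFD) until tissue was taken at 12 to 13 weeks of age. Each of the 20 groups had 3 or 4 libraries, 1 animal each, and muscle was read on chow alone. Where the titles give the same animal number, depots and muscle came from the same mouse.

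The libraries held totals from 15.75 to 31.48, in units of 1000000 counts. By the run codes in the sample titles, the chow libraries shared 1 sequencing run and the HFD libraries were spread over others. Diet and run therefore cannot be told apart. The third C3Hn:C3Hmt HFD library of iWAT was alone in its run. By the lane codes there, tissue and lane went together on chow. In iWAT and muscle so did nucleus and lane, and in eWAT they nearly did, so these cannot be told apart either. Adipocyte markers stood at 3557 to 32790 counts per 1000000 counts (CPM) summed over 5 genes in fat and at 356.6 to 862.1 in muscle. In 14 of 30 iWAT libraries, 11 on chow and 3 on HFD, 12 lymphocyte and lymph node markers summed to 398.8 CPM or more, against 155 or less in the other 16. In 6 of 29 eWAT libraries, 5 on chow and 1 on HFD, 9 markers of epididymal epithelium summed to 2645 CPM or more, against 108.9 or less in the other 23. Results that rest on these libraries are given with and without them. In bulk tissue, fewer cells of a type and less RNA per cell cannot be told apart.

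A gene was tested within a tissue when it passed a filter on low counts, and it was called when the Benjamini-Hochberg adjusted p of edgeR's quasi-likelihood test, taken over all genes of that tissue, was under 0.05. Of the 35 ligands, 31 were tested in eWAT, 31 in iWAT and 22 in muscle. Ccl20, a ligand of dendritic cells and T cells with 121 counts over all libraries, Cxcl3, a neutrophil ligand with 81, and Cxcl15, a lung ligand with 62, were tested nowhere. Ccl1 was not tested in eWAT, Cxcl5 was not tested in iWAT, and muscle further lacked Ccl1, Ccl3, Ccl4, Ccl5, Ccl12, Ccl17, Ccl22, Cxcl5, Cxcl10 and Cxcl11. Levels of single genes are in CPM, and levels of different genes were compared only per kilobase of exon.

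Most of the ligands lie side by side in the genome. In the mm9 build (NCBIM37), 28 of the 35 fell into 6 clusters of 3 or more with less than 1000000 bases between neighbours. The CC ligands Ccl2, Ccl7, Ccl11, Ccl12, Ccl8 and Ccl1 spanned chr11:81849073-82119192. Ccl5, Ccl9, Ccl6, Ccl3 and Ccl4 spanned chr11:83339280-83478185. Ccl27, Ccl21b, Ccl21c, Ccl19 and Ccl21a spanned chr4:41716340-42787525. The neutrophil ligands Cxcl5, Cxcl3, Cxcl15, Cxcl1 and Cxcl2 with the platelet ligand Cxcl4 spanned chr5:91188325-91334935, and the interferon-induced Cxcl9, Cxcl10 and Cxcl11 spanned chr5:92750357-92794511. Ccl22, Cx3cl1 and Ccl17 spanned chr8:97269490-97335935.

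One set of copies cannot be kept apart by short reads, and its sequence is shown because the strain comparison turns on it. Ccl21a, Ccl21b and Ccl21c encode the lymphatic and lymph node ligand of the receptor CCR7. Ccl21a and Ccl21b differed at 2 of 402 coding bases (99.5% identity), and at 6 of 870 bases of the mRNA. Ccl21b and Ccl21c were the same over 868 compared bases. The stretch from coding base 71 to 210, counted from the first base of the start codon on NCBIM37, holds both coding differences, T84A and C194T, which are in capitals here with the base of Ccl21a first in each token.
Ccl21a: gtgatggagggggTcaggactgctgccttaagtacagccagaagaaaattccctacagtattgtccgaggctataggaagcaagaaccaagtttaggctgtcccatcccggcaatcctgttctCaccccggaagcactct
Ccl21b: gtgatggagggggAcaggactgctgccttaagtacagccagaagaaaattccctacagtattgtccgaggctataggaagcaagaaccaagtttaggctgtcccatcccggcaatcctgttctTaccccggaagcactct
A read that covers none of the 6 differing bases fits Ccl21a and Ccl21b equally well. The expected count divides such reads among the copies by a model, so values of the 3 Ccl21 rows are uncertain as values of single genes.

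The promoters of 3 ligands that were higher on HFD are shown because they hold a match to the NF-kB motif, written by its 10-letter consensus and searched on both strands over the 250 bases before the start site (RefSeq, GRCm38.p6). Of 25 ligands with a promoter sequence, 7 held a match (28%), against 2382 of 32851 promoters in all (7.25%). The first share is per gene, with a match in any of its promoters, and the second per promoter, so their units differ. Of the 10 ligands higher on HFD in eWAT, 6 had a promoter sequence and 3 of these held a match. The matches are in capitals. In Cxcl1 and Cxcl2 the same 11 bases hold a pair of overlapping matches, 1 per strand, which end 60 and 61 bases before the start site in Cxcl1 and 86 and 87 bases before it in Cxcl2. The match of Ccl9 is on the strand opposite to the gene and ends 25 bases before its start site. The windows are chr5:90890995-90891244 on the plus strand for Cxcl1, chr5:90903649-90903898 on the plus strand for Cxcl2 and chr11:83578637-83578886 on the minus strand for Ccl9, and a match is a description of these letters only.
Cxcl1: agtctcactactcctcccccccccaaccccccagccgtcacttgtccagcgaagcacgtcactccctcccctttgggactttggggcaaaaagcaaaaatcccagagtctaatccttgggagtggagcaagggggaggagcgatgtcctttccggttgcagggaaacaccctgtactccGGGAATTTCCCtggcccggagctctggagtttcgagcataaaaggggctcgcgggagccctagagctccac
Cxcl2: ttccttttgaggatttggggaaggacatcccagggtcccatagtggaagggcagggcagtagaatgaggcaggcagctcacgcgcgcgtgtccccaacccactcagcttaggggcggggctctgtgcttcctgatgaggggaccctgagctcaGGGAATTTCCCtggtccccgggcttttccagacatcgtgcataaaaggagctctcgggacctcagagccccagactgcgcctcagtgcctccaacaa
Ccl9: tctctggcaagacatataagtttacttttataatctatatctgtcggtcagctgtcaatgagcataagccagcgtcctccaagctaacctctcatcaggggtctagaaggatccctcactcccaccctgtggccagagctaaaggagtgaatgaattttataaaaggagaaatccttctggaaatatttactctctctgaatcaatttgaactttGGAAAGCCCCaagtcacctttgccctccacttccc

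Per kilobase of exon, the ligand that led differed between tissues. In eWAT on HFD, Ccl6, a CCR1 ligand of myeloid cells, was the highest at 171.2 ± 90.6 CPM per kb (SD, n = 14). It was followed by Ccl9 at 82.7 ± 39.1, Ccl11 at 66.0 ± 33.8, Cxcl4 at 63.4 ± 25.8 and Ccl2 at 48.1 ± 24.8. On chow the eWAT order was Ccl6 at 70.8 ± 45.9, Ccl21b at 62.8 ± 39.0 and Cxcl4 at 53.3 ± 25.9 (n = 15), and the ranges of these 3 overlapped. Without the libraries with epithelial RNA the chow means were 89.5 for Ccl6, 67.0 for Cxcl4 and 48.2 for Ccl21b (n = 10).
In iWAT, Ccl21b had the highest mean on both diets. It stood at 262 ± 198 CPM per kb on chow (n = 16), where it made up 31.9% of the summed ligand level, and at 128.3 ± 275.3 on HFD (n = 14). The HFD mean rests on 1 library at 1025, without which it was 59.3, and the HFD median of Ccl21b was 21.8 against 96.2 for Ccl6. Without the libraries with lymph node RNA the mean of Ccl21b was 12.8 on chow (n = 5) and 19.8 on HFD (n = 11). Ccl8 came next on chow at 89.5 ± 51.0 and Ccl6 next on HFD at 103.7 ± 51.7. In muscle Cxcl14, an epithelial and stromal ligand, stood at 56.9 ± 9.37 (n = 16), Ccl21b at 45.9 ± 17.4 and Ccl11 at 40.8 ± 6.83.

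**Figure D1:**
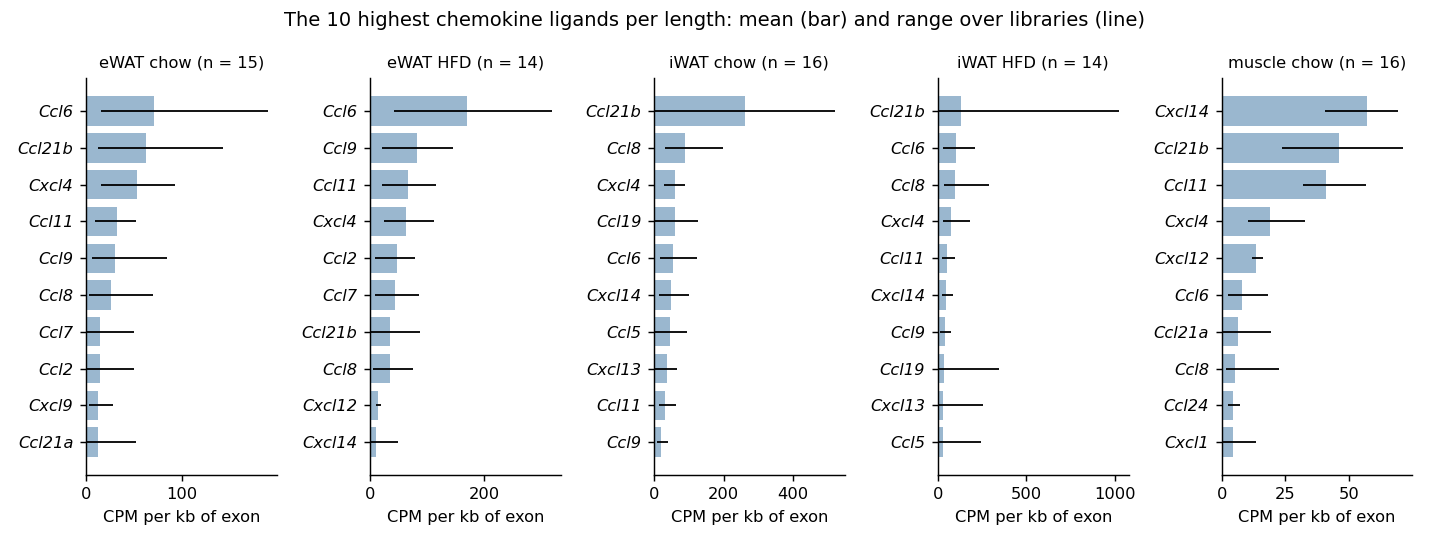
Levels of the 10 highest chemokine ligands in each tissue and diet, in CPM per kilobase of exon (horizontal axis, from 0; its scale differs between panels). Bars are means over the libraries and lines run from the lowest to the highest library. By the mean Ccl6 leads both eWAT panels, Ccl21b both iWAT panels and Cxcl14 the muscle panel, the HFD mean of Ccl21b through 1 library at 1025.

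The first comparison was HFD against chow within each depot, as the mean over the 4 genotypes. In eWAT the monocyte ligands Ccl2 and Ccl7, the CCR1 ligands Ccl9, Ccl6 and Ccl3, the eosinophil ligand Ccl11, the neutrophil ligands Cxcl1, Cxcl2 and Cxcl5 and the CCR4 ligand Ccl22 were higher on HFD. The skin ligand Ccl27, the B-cell ligand Cxcl13, the interferon-induced Cxcl11 and the membrane-bound Cx3cl1 were lower. These 14 called ligands were 45.2% of the 31 tested, against 41% of all 17781 genes tested, so the share called was near the background. The median log2 fold change was 0.19 over the ligands and -0.11 over all genes.

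Ccl2, the main ligand of CCR2 on monocytes, had its lowest, median and highest eWAT library at 10.9, 61.2 and 90.0 CPM on HFD (n = 14) and at 1.67, 11.8 and 57.4 CPM on chow (n = 15). The groups overlapped, although 8 of the 14 HFD libraries lay above every chow library. Its log2 fold change was 1.92 ± 0.44 (SE; adjusted p = 0.00159). Ccl7, which shares the receptor CCR2 and lies beside Ccl2, ran at 6.67, 39.4 and 68.5 CPM on HFD and at 0.973, 9.80 and 40.2 on chow, with a log2 fold change of 1.71 ± 0.43 (adjusted p = 0.00349). These were the largest log2 fold changes among the ligands that rose.

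Of the CCR1 ligands, Ccl9 ran at 62.1, 243.7 and 443.7 CPM on HFD and at 17.5, 78.8 and 258.8 on chow. Its log2 fold change was 1.47 ± 0.34 (adjusted p = 0.00184), and Ccl6 followed with 1.22 ± 0.34 (adjusted p = 0.0065). Ccl3 rose by 1.40 ± 0.44 on the log2 scale from low levels, with a median of 0.690 CPM on HFD and 0.248 on chow (adjusted p = 0.0152). Ccl5, a ligand of T cells, had no call in eWAT (adjusted p = 0.545), with medians of 2.81 CPM on HFD and 2.97 on chow.

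The neutrophil ligands moved at low levels. Cxcl1 ran at 2.63, 5.01 and 8.18 CPM on HFD and at 0.550, 2.52 and 4.70 on chow, a log2 fold change of 1.18 ± 0.28 (adjusted p = 0.00229). Cxcl5 (log2 fold change 1.56, adjusted p = 0.0455) and Cxcl2 (0.82, adjusted p = 0.0456) passed the threshold narrowly, and leaving out 1 library lifted their adjusted p to as much as 0.219 and 0.127. Ccl11 rose by 0.92 ± 0.28 (adjusted p = 0.0115) and Ccl22 by 0.84 ± 0.28 (adjusted p = 0.021) on the log2 scale.

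The 4 ligands that were lower on HFD in eWAT were Ccl27, Cxcl13, Cxcl11 and Cx3cl1. Cxcl13, which guides B cells into follicles, ran at 0.0445, 0.667 and 4.95 CPM on HFD and at 0.319, 1.20 and 17.7 on chow, with a log2 fold change of -1.89 ± 0.66 (adjusted p = 0.0255). The groups overlapped, and without the second chow library of C3Hn:C3Hmt the adjusted p was 0.149. Cxcl11 was near the detection limit, at 0, 0.0222 and 0.352 CPM on HFD and at 0, 0.0638 and 0.578 on chow (log2 fold change -1.90, adjusted p = 0.0273). Ccl27 fell by 0.99 ± 0.24 on the log2 scale (adjusted p = 0.00249).

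Cx3cl1, the ligand of CX3CR1, moved with the epithelial RNA. It ran at 1.59, 4.23 and 10.5 CPM on HFD and at 2.52, 6.32 and 51.8 on chow (log2 fold change -0.98 ± 0.38, adjusted p = 0.04). In the 6 libraries with epithelial markers it stood at 6.41, 20.6 and 51.8 CPM, against 1.59, 4.87 and 10.6 in the other 23. Without those 6 libraries its log2 fold change was -0.23 (adjusted p = 0.378), and the calls of Cxcl2, Cxcl5 and Cxcl11 were lost as well. With the epithelial markers as a covariate, where 30.9% of all genes were called, 8 of the 14 calls were lost. These were the same 4 and Ccl6 (0.74, adjusted p = 0.0641), Ccl11 (0.47, adjusted p = 0.109), Ccl22 (0.69, adjusted p = 0.103) and Ccl3 (0.79, adjusted p = 0.188). Without the 6 libraries Ccl2 stayed called at 1.58 (adjusted p = 0.00456) and Ccl9 at 1.20 (adjusted p = 0.00102).

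Runs bear on the same comparison. With the sequencing run as a term, which adjusts between the HFD runs only, 4 ligands were called in eWAT, against 16.2% of all genes. They were Ccl2 (log2 fold change 1.82, adjusted p = 0.0272), Ccl7 (1.65, adjusted p = 0.0419), Ccl9 (1.33, adjusted p = 0.0415) and Cxcl1 (1.29, adjusted p = 0.0186).

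The receptors of these ligands were read from a list of 18, of which 11 were tested in eWAT. On HFD 7 were higher and none lower. Among them were Ccr2 at a log2 fold change of 1.74 ± 0.28 (adjusted p = 4.95e-05), Ccr1 at 1.57, Ccr3 at 1.17, Ccr9 at 0.88, Cxcr4 at 0.84 and Xcr1 at 0.65. Of 5 atypical receptors, which bind chemokines without the usual signalling, Ccrl2 rose by 0.87 and Cxcr7 by 0.54. Of 7 tested cytokines that induce chemokines, Il6 rose by 1.79 ± 0.33 (adjusted p = 0.0002) and Ltb fell by 0.99. Of 9 tested macrophage markers 6 were higher on HFD, and their sum ran at 560, 1271 and 3517 CPM on HFD and at 269, 716 and 1786 on chow. Of 9 epithelial markers 7 were lower, and of 12 lymphocyte markers 4 were lower. The part of these cells in the ligand result was not tested. The background of each count in this paragraph is that of all 17781 genes tested, of which 3263 were higher and 4031 lower.

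In iWAT the same contrast called 6 of 31 ligands, which were Ccl9, Ccl2, Ccl6, Ccl11 and Ccl7 higher and Cx3cl1 lower. That is 19.4%, against 37.6% of all genes. Ccl2 ran at 10.1, 23.3 and 50 CPM on HFD (n = 14) and at 2.54, 8.71 and 22.5 on chow (n = 16), and its log2 fold change was 1.32 ± 0.30 (adjusted p = 0.00106). Ccl9 ran at 32.0, 110.8 and 227.8 CPM on HFD and at 25.9, 60.7 and 118.5 on chow (0.96 ± 0.20, adjusted p = 0.000519). Ccl7 ran at 8.70, 18.5 and 40.3 CPM on HFD and at 2.39, 9.21 and 30.2 on chow (0.99 ± 0.33, adjusted p = 0.0189). All 3 overlapped between diets. Ccl6 rose by 0.82 and Ccl11 by 0.62, while Cx3cl1 fell by 0.44 on the log2 scale, from a median of 4.38 CPM to 3.41.

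These iWAT calls were read again without the libraries with lymph node RNA, most of which were on chow. That left 5 of 16 chow libraries, so the loss of libraries and the loss of lymph node RNA cannot be told apart. Without the 14 libraries none of the 6 was called, against 10.3% of all genes, and the log2 fold change of Ccl2 was 0.70 (adjusted p = 0.107) and that of Ccl9 0.57 (adjusted p = 0.16). With the lymphocyte markers as a covariate all 6 stayed called, Ccl2 at 1.23 and Ccl9 at 0.73. With trends over G+C content and length removed, Ccl7 (adjusted p = 0.118), Ccl11 (adjusted p = 0.197) and Cx3cl1 (adjusted p = 0.543) were lost. With the run as a term Ccl7 missed the threshold (adjusted p = 0.0504). Cxcl13 (log2 fold change -0.59, adjusted p = 0.499), Ccl5 (-1.03, adjusted p = 0.203) and Cxcl12 (-0.02, adjusted p = 0.925) had no call between diets in iWAT.

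Receptors in iWAT gave 3 calls of 15 tested, all higher on HFD, among them Ccr2 by 1.29 ± 0.12 (adjusted p = 2.51e-08) and Ccr1 by 1.18. Of 9 tested macrophage markers 5 were higher, and their sum ran at 503, 861 and 1072 CPM on HFD and at 491, 772 and 1037 on chow. No atypical receptor and no inducing cytokine was called. Of all 16888 genes tested, 3615 were higher and 2730 lower.

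The diet responses of the depots were also set against each other. Of 32 ligands tested over all tissues, 0 were called for a difference between the eWAT and the iWAT response by edgeR's quasi-likelihood test, against 1.56% of all genes. At an unadjusted p under 0.05 there were 5, and DESeq2 called 0. For Ccl2 the difference was 0.61 ± 0.50 on the log2 scale (adjusted p = 0.589).

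**Figure D2:**
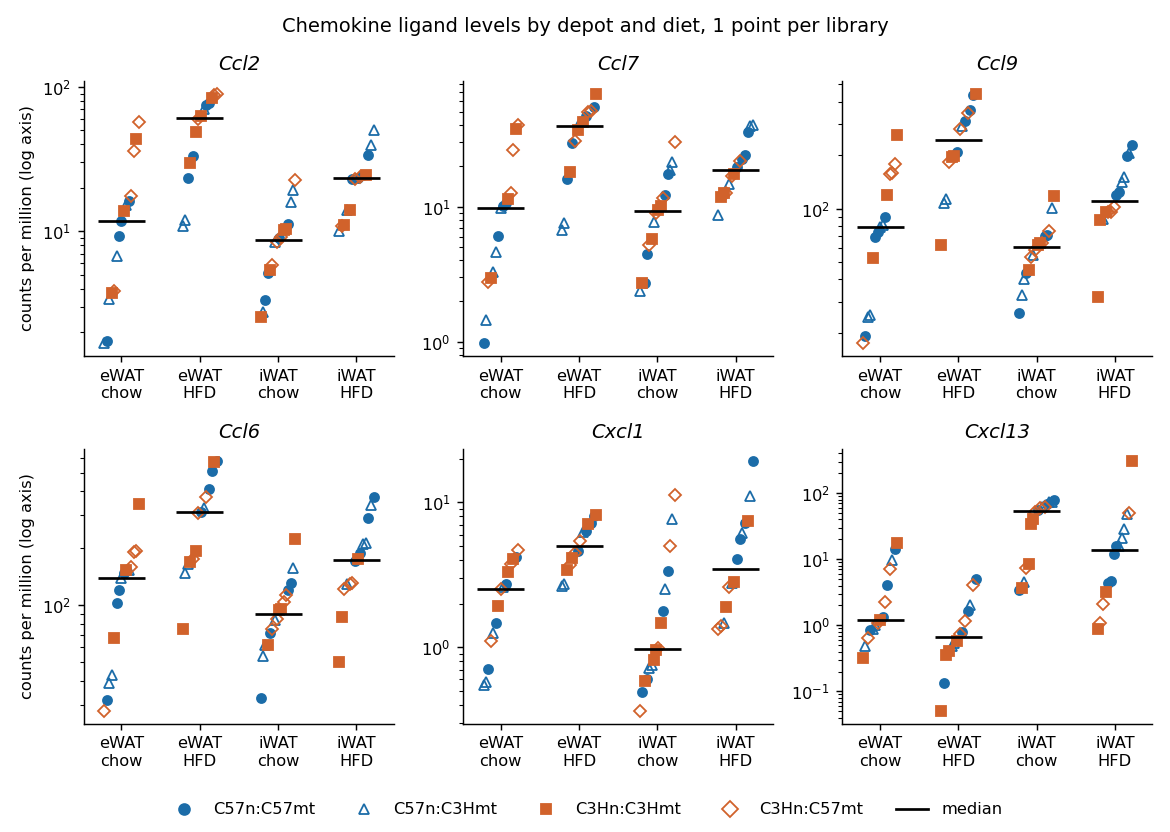
Levels of Ccl2, Ccl7, Ccl9, Ccl6, Cxcl1 and Cxcl13 in each fat library, in CPM on a log axis, by depot and diet. Each point is a library, ordered by its value within a column, filled for wild types and open for exchange lines; lines are medians. The Ccl2 median is 61.2 CPM in eWAT on HFD against 11.8 on chow, and Cxcl13 is highest in iWAT.

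Levels of Ccl2 and its neighbour Ccl7 followed each other closely. Over libraries of the same depot and diet, log2 levels of Ccl2 and Ccl7 correlated with Pearson's r of 0.99 (eWAT chow, n = 15), 0.98 (eWAT HFD, n = 14), 0.98 (iWAT chow, n = 16) and 0.95 (iWAT HFD, n = 14). Spearman's rho was 0.95, 0.95, 0.96 and 0.86. The permutation p of Pearson's r was 1e-05 in each, the smallest that 100000 resamples can give, and 3.429e-05 after adjustment over 24 relations. Without the 2 libraries farthest from the median r stayed at 0.99, 0.94, 0.97 and 0.92. Within each HFD run r lay at 0.95 (n = 8) and 0.99 (n = 6) in eWAT, and at 0.99 (n = 6) and 0.97 (n = 7) in iWAT.

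The relation of Ccl2 to macrophage markers was read in each depot. In eWAT the log2 sum of 9 macrophage markers correlated with Ccl2 at r = 0.95 on chow (rho 0.94, adjusted permutation p = 3.429e-05, r = 0.94 without the 2 farthest libraries). On HFD it was 0.70 (rho 0.74, adjusted permutation p = 0.0107, and 0.58 without them), and 0.72 within both runs. In iWAT r was 0.43 on chow (rho 0.41, adjusted permutation p = 0.129, 0.46 without the 2 farthest) and -0.02 on HFD (rho -0.12, adjusted permutation p = 0.937, -0.11 without them). Without the libraries with epithelial RNA r was 0.92 in eWAT on chow (n = 10, rho 0.93, permutation p = 9e-05) and 0.73 on HFD (n = 13, rho 0.71, permutation p = 0.00404). Without those with lymph node RNA it was 0.38 in iWAT on HFD (n = 11, rho 0.31, permutation p = 0.245). Within the iWAT HFD runs r was 0.05 (n = 6) and 0.14 (n = 7). Genotypes were pooled here too, and r within a nucleus was not computed. In eWAT on chow the median macrophage marker sum was 1258 CPM with C3Hn and 633.7 with C57n. The median of Ccl2 there was 17.4 CPM with C3Hn and 7.99 with C57n. Whether r differs between the depots was not tested. In all, 13 of the 24 relations of Ccl2 passed 0.05 after adjustment by both coefficients.

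Within single genotypes the diet contrast called 18 ligands over 8 contrasts and 248 tests. In eWAT 7 were in C57n:C57mt, against 16.9% of all genes. By edgeR's quasi-likelihood test 0 were called for C57n:C3Hmt (background 6.98%, 8 with an unadjusted p under 0.05). The C3H wild type (1.66%) and C3Hn:C57mt (11.1%) also had 0, with 2 and 6 at an unadjusted p under 0.05. The 7 were Ccl9 (log2 fold change 2.40), Ccl2 (2.46), Ccl7 (2.43), Ccl6 (2.19), Ccl11 (1.57) and Cxcl1 (1.55) higher and Ccl27 (-1.70) lower.

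In C57n:C57mt eWAT, Ccl9 stood at 69.3, 73.4, 19.3 and 90.3 CPM in the chow libraries and at 207.1, 358.0, 309.9 and 432.9 on HFD, without overlap. Ccl2 stood at 11.8, 9.29, 1.73 and 16.1 CPM on chow and at 23.2, 33.5, 75.1 and 77.8 on HFD, also without overlap. Ccl27 stood at 3.67, 3.57, 18.2 and 4.84 CPM on chow and at 2.33, 2.62, 2.69 and 1.54 on HFD. The third chow library is the low value of Ccl9 and Ccl2 and the high value of Ccl27, and it is 1 of the 6 with epithelial markers (13030 CPM). Without that library none of the 7 was called. The adjusted p ran from 0.0803 (Ccl9, log2 fold change 2.10) to 0.175 (Cxcl1, 1.25). Ccl2 was at 2.11 (adjusted p = 0.163), Ccl6 at 1.90, Ccl7 at 2.06, Ccl11 at 1.28 and Ccl27 at -0.78 (adjusted p = 0.168). Without all 6 libraries with epithelial markers, Ccl9, Ccl6 and Ccl11 stayed called, against 15.9% of all genes. With the epithelial markers as a covariate Ccl9 alone stayed called, against 7.1%.

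In C3Hn eWAT the chow values of Ccl2 spread widely. They were 3.72, 43.9 and 13.8 CPM in C3Hn:C3Hmt and 57.4, 3.84, 17.4 and 35.8 in C3Hn:C57mt. On HFD they were 29.7, 48.4, 84.3 and 62.5 CPM in C3Hn:C3Hmt and 87.8, 90.0 and 59.8 in C3Hn:C57mt, the last without overlap with chow. The log2 fold changes of Ccl2 were 1.48 ± 0.90 and 1.51 ± 0.86, and 2.21 ± 0.88 in C57n:C3Hmt.

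In iWAT the calls within genotypes were 6 for C57n:C57mt (background 16.7%) and 4 for C57n:C3Hmt (16.5%). With the C3H nucleus there was 1 in the wild type (4.88%) and 0 in the exchange line (7.7%), where 2 ligands had an unadjusted p under 0.05. In the C57 wild type these were Ccl9, Ccl6, Ccl2, Ccl11 and Cxcl2 higher and Cx3cl1 lower. In C57n:C3Hmt they were Ccl9, Ccl6 and the platelet ligand Cxcl4 higher and Cx3cl1 lower. Ccl9 rose from 25.9, 70.2, 71.1 and 43.6 CPM to 123.4, 196.4, 119.4 and 227.8 in C57n:C57mt iWAT. Cxcl2 there stood at 0.113, 1.40, 1.66 and 0.378 CPM on chow and at 6.54, 2.28, 12.9 and 3.42 on HFD, with no overlap. In C3Hn:C3Hmt, Ccl17 stood at 0.221, 0, 0.196 and 0.172 CPM on chow and at 0.281, 0.206 and 4.05 on HFD. The call rests on the last library, which has the most lymph node RNA (2859 CPM of markers) and is the sole library of its run. Without that library the log2 fold change of Ccl17 fell from 3.29 to 0.74 (adjusted p = 0.707). Of the other 10 calls, Ccl9 in C57n:C57mt stayed called whichever library was left out; the others were each lost without at least 1 library, with adjusted p up to 0.141 (Ccl6 in C57n:C3Hmt, without its second chow library). Without the libraries with lymph node RNA, which were 3 of 4 on chow and none on HFD in C57n:C57mt, all 11 iWAT calls were lost, and 0 to 0.0354% of all genes were called. With the lymph node markers as a covariate C57n:C57mt kept the call of Ccl9 alone, and C57n:C3Hmt and C3Hn:C3Hmt kept all of theirs.

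Differences of the diet response between nuclei were 0 called of 62 tests by edgeR's quasi-likelihood test, against 0% of all genes in eWAT and 0.716% in iWAT. At an unadjusted p under 0.05 there were 18, of which 14 were in iWAT. DESeq2 called 10, where its share of all genes was 6.5% in eWAT and 9.32% in iWAT. The lowest adjusted p was 0.0523, for the eosinophil ligand Ccl24 in iWAT. With the lymphocyte markers as a covariate, which lifted the share of all genes called to 8.26%, 7 were called there: Ccl24 (1.79), Ccl9 (1.08), Cxcl4 (1.06) and Cxcl14 (0.89) with a more positive response of C57n, and Cxcl10 (-1.31), Cxcl16 (-0.80) and Cxcl12 (-0.60) with a more negative one, as log2 differences.

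The next question was the nuclear genome, C57n minus C3Hn, averaged over both mitochondrial genomes in each tissue and diet. On chow nucleus and lane went together, nearly so in eWAT. In the cluster on chromosome 4, Ccl27, Ccl21a and Ccl21c were higher with C57n in all 5 contrasts. Of its 5 members 4 were called higher in eWAT on both diets, 3 in iWAT on both diets, and in muscle 4 were higher and Ccl21b lower. In all, 6 of 31 ligands were called in eWAT on chow (19.4%, background 15.1%) and 9 on HFD (29%, background 13.1%). In iWAT they were 8 on chow (25.8%, background 11.7%) and 10 on HFD (32.3%, background 16.3%), and in muscle 14 of 22 (63.6%, background 33.6%). All these counts include both Ccl21a and Ccl21c, whose values are not independent, as given below, so the shares count that difference more than once. Without the libraries with epithelial RNA, eWAT had 6 calls on chow (background 15.3%) and 11 on HFD (background 29.5%). Without those with lymph node RNA, iWAT had 12 on HFD (background 12.5%).

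Ccl27, which binds CCR10 on T cells of the skin, never overlapped between the nuclei. On chow its lowest, median and highest library stood at 2.86, 4.08 and 18.2 CPM with C57n (n = 8) and at 0.403, 0.767 and 1.13 with C3Hn (n = 7) in eWAT. In iWAT the values were 1.90, 3.49 and 5.63 against 0.198, 0.348 and 0.587. In muscle they were 8.02, 8.72 and 11.2 against 0.387, 0.596 and 0.877.
All C57n values lay above all C3Hn values in each. The log2 fold changes were 2.81 ± 0.35 (eWAT chow), 2.59 ± 0.36 (eWAT HFD), 3.40 ± 0.28 (iWAT chow), 2.93 ± 0.32 (iWAT HFD) and 3.87 ± 0.15 (muscle), with adjusted p from 6.366e-12 to 2.612e-05. The deposited row Ccl27 was matched to the annotated gene Ccl27a. Whether its reads also fit another copy was not checked.

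Ccl21a was at 0 counts in every fat library with the C3H nucleus and was counted in every library with the C57 nucleus. In eWAT with C57n it ran at 4.36, 19.6 and 45.6 CPM on chow and at 0.680, 13.1 and 34.7 on HFD. In iWAT it ran at 0.977, 13.1 and 23.4 CPM on chow and at 0.105, 2.78 and 11 on HFD. Against the limit of 3 counts over the C3Hn libraries it was at least 1373-fold higher in eWAT on chow, 647.5-fold on HFD, and 867.3-fold and 180.2-fold in iWAT. In muscle it ran at 8.92, 10.6 and 16.8 CPM with C57n, and 8 C3Hn libraries held 1 count in all.

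Ccl21c was at 0 counts in every C3Hn library and was counted in all C57n libraries but 1, in iWAT on HFD. With C57n it ran at 1.46, 6.52 and 15.2 CPM in eWAT on chow and at 2.95, 3.5 and 5.59 in muscle. It was at least 457.4-fold and 216.4-fold higher in eWAT, 289.1-fold and 59.6-fold in iWAT and 111.9-fold in muscle, by the same limit. Its deposited values were 0.32 to 0.338 of those of Ccl21a wherever Ccl21a had over 20 counts. The annotated mRNA of Ccl21c equals that of Ccl21b, not Ccl21a, and no source used here says which transcript models stand behind the deposited rows. The Ccl21c values are therefore not read as those of a separate gene. Ccl21b was found with both nuclei. It was lower with C57n in muscle (20.6, 26.2 and 33.4 CPM against 36.8, 54.0 and 62.1, without overlap, log2 fold change -1.01 ± 0.10, adjusted p = 3.727e-07) and had no call in fat. In muscle the mean CPM of Ccl21a, Ccl21b and Ccl21c was 11.3, 26.55 and 3.752 with C57n. With C3Hn it was 0.01097, 53.31 and 0. The 3 rows were not tested together. A difference in the Ccl21a or Ccl21b row therefore cannot be told apart from another division of reads among the copies. The reads of both nuclei were assigned to mm9, the genome of C57BL/6J, and the part of that reference in these differences was not tested.

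**Figure D3:**
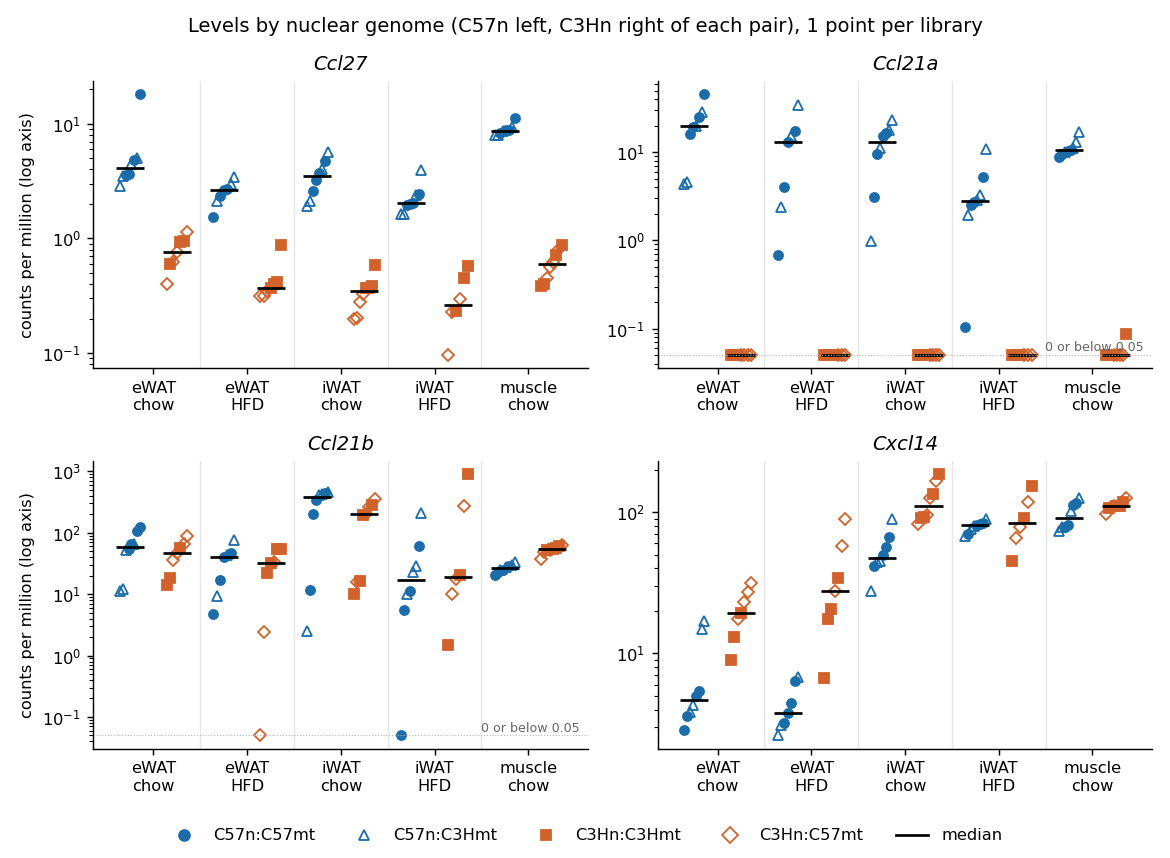
Levels of Ccl27, Ccl21a, Ccl21b and Cxcl14 in each library by nuclear genome, in CPM on a log axis. In each pair the C57n libraries (blue) are left and the C3Hn libraries (orange) right, filled for wild types and open for exchange lines, points are ordered by value, and values of 0 or below 0.05 are drawn on the dotted line. Ccl27 does not overlap between nuclei in any pair, and Ccl21a is at 0 in all C3Hn fat libraries.

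Apart from that cluster, Cxcl14 and Ccl17 were called in eWAT on both diets. Cxcl14 ran at 2.86, 4.66 and 17.0 CPM with C57n and at 9.03, 19.4 and 31.3 with C3Hn on chow (log2 fold change -1.52 ± 0.36, adjusted p = 0.00731). On HFD it ran at 2.63, 3.78 and 6.80 against 6.70, 27.6 and 89.7 (-3.0 ± 0.40, adjusted p = 1.572e-05), and the groups overlapped on both diets. Ccl17, a ligand of CCR4 made by dendritic cells, was higher with C57n by 2.10 ± 0.51 on chow (adjusted p = 0.00847) and by 3.18 ± 0.55 on HFD (adjusted p = 0.000377), where its 0.388 to 1.81 CPM did not overlap with 0.0348 to 0.196. Ccl19, the other CCR7 ligand, was higher by 1.68 on chow and 1.44 on HFD. Its call was lost without the epithelial libraries on chow (1.28, adjusted p = 0.0789) and without the second C3Hn:C57mt HFD library on HFD (adjusted p = 0.0812).

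On HFD 3 further ligands were called in eWAT. Cxcl11 was at 0 in all 7 C57n libraries and at 0.0445, 0.166 and 0.352 CPM with C3Hn, which is 33 counts in all and at least 10.7-fold higher in C3Hn against 3 counts over the C57n libraries. Ccl24 was higher with C57n (8.73, 12.3 and 17.5 CPM against 2.89, 4.76 and 8.52, no overlap, log2 fold change 1.49 ± 0.40, adjusted p = 0.0135). Cxcl16 was lower with C57n by 0.86 ± 0.24 on the log2 scale (adjusted p = 0.0172), a call lost without the third C3Hn:C57mt HFD library (adjusted p = 0.0674).
Of the receptors, Xcr1 (-1.20 on chow, -1.35 on HFD) and Cxcr4 (-1.05, -1.19) were lower with C57n in eWAT on both diets and Cx3cr1 (-1.85) on HFD, 2 and 3 of 11 tested. The atypical receptor Ccrl2 was lower by 1.70 on chow and 1.48 on HFD. Of 9 macrophage markers 3 were lower with C57n on chow, and 3 lower and 1 higher on HFD. Of all 17781 genes tested, 1260 were lower and 1420 higher on chow, and 1342 lower and 987 higher on HFD.

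In iWAT on chow the further calls were Cxcl14 lower with C57n (27.5, 47.4 and 88.8 CPM against 82.9, 110.4 and 185.2, log2 fold change -1.20 ± 0.24, adjusted p = 0.000892) and Cxcl11 lower. Cxcl11 stood at 0, 0.0574 and 0.110 CPM against 0.129, 0.346 and 1.27, without overlap (-2.67 ± 0.59, adjusted p = 0.00291). Cxcl10 (1.37), Cx3cl1 (0.69) and Ccl17 (1.89) were higher, Cx3cl1 at 4.30, 6.53 and 8.52 CPM against 2.43, 3.63 and 5.74. The call of Ccl17 was lost without the fourth C57n:C57mt chow library (adjusted p = 0.108). Without the libraries with lymph node RNA, which leaves 5 of 16, Ccl27 was the 1 ligand called (3.34, adjusted p = 0.0096), against 1.97% of all genes. Cxcl14 then had a log2 fold change of -1.06 (adjusted p = 0.0582), and Ccl21a had no call (adjusted p = 0.0786).

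In iWAT on HFD, Cxcl11 was again lower with C57n, at 0, 0.0151 and 0.140 CPM (n = 8) against 0.228, 0.699 and 2.10 (n = 6), without overlap (-4.28 ± 0.65, adjusted p = 3.765e-05). Cxcl4 (39.8 to 106.5 CPM against 17.8 to 29.3) and Ccl24 (16.6 to 45.9 against 4.43 to 10.6) were higher with no overlap, by 1.13 and 1.41 on the log2 scale. Ccl6 (1.06), Ccl9 (0.91) and Ccl11 (0.84) were higher and Ccl8 (-1.22) lower, and these 4 lost their calls with the run as a term. Ccl6 (adjusted p = 0.099), Ccl9 (0.0999) and Ccl11 (0.101) also lost them without the third C3Hn:C3Hmt library, and Ccl8 (0.1) without the first C3Hn:C57mt library. The third C3Hn:C3Hmt library is the sole library of its run, so the run term and its removal are not separate limits for Ccl6, Ccl9 and Ccl11. It also belongs to the libraries with lymph node RNA. Without all of these, Ccl6, Ccl8 and Ccl9 lost their calls and Ccl11 kept its call. Of the receptors in iWAT, Ccr1 was higher with C57n by 0.94 on chow and 1.14 on HFD and Ccr2 by 0.78 and 0.64, while Ccl2 and Ccl7 had no call on either diet and Ccl6 and Ccl9 none on chow.

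In muscle 10 ligands were higher with C57n and 4 lower. Ccl6 stood at 12.1, 19.1 and 32.3 CPM with C57n against 4.16, 7.42 and 10.9 with C3Hn, without overlap (log2 fold change 1.42 ± 0.22, adjusted p = 9.07e-05). Ccl9 stood at 9.94, 14.4 and 21.9 against 4.72, 7.05 and 9.26, also without overlap (1.02 ± 0.17, adjusted p = 0.000228), as did Cxcl9, an interferon-induced ligand of CXCR3 (1.55 to 3.01 against 0.373 to 1.32 CPM, 1.31 ± 0.22).
The others higher with C57n were Ccl19 (1.37), Cxcl13 (2.20), Cxcl4 (0.61) and Ccl2 (1.21). Cxcl12, a stromal ligand that retains progenitor cells, differed little in size but called, at 97.0, 102.8 and 115.6 CPM against 106.0, 119.5 and 133.5 (-0.20 ± 0.04, adjusted p = 0.00167), and its groups overlapped. Ccl8 (-1.79) and the thymus and gut ligand Ccl25 (-1.19) were lower. Ccr2 (1.16) was higher, and 3 of 9 macrophage markers were higher with C57n. Of all 13735 genes tested, 2353 were higher with C57n.

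**Figure D4:**
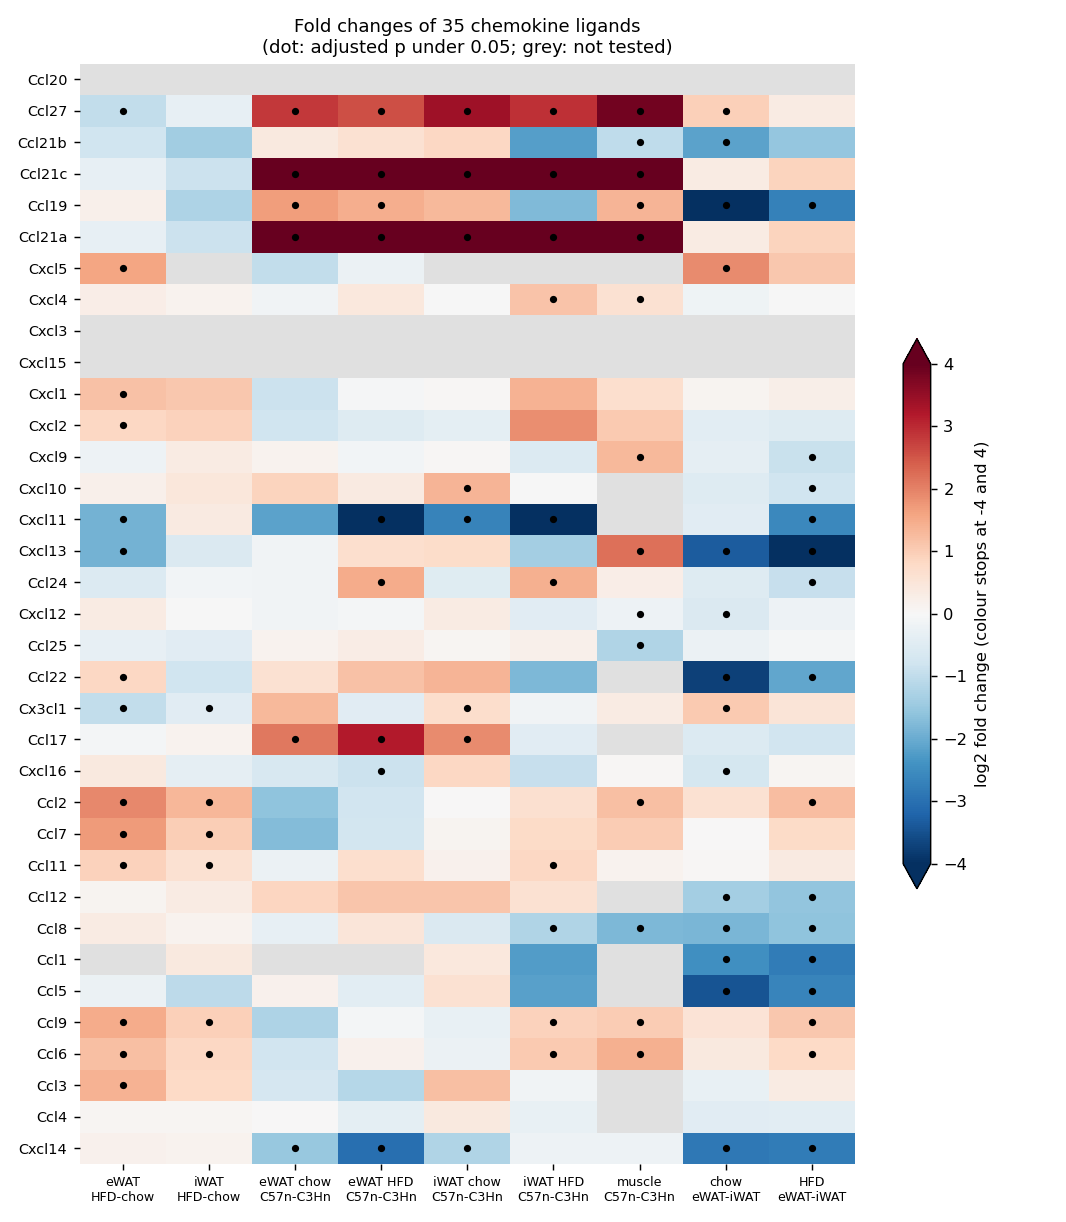
Log2 fold changes of the 35 ligands (rows, in genome order) in 9 contrasts (columns): HFD minus chow in eWAT and iWAT, C57n minus C3Hn in 5 settings, and eWAT minus iWAT on each diet. Red is higher in the first group, dots mark an adjusted p under 0.05 and grey marks genes not tested. Ccl27, Ccl21c and Ccl21a are red with a dot in all 5 C57n columns, and the values of Ccl21c are not independent of those of Ccl21a.

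Mitochondrial DNA was compared within a nucleus, the exchange line minus the wild type, in 10 contrasts over tissue and diet. None of 292 tests on the ligands was called by edgeR's quasi-likelihood test, 22 had an unadjusted p under 0.05 (7.53%), and DESeq2 called 2. Of all genes 0% were called in 8 of the 10 contrasts, 0.0112% in eWAT with C3Hn on HFD and 0.00728% in muscle with C3Hn. The 2 calls of DESeq2 were Ccl20 in iWAT with C57n on each diet, a gene with few counts. DESeq2 called 0.0361% of all genes there on chow and 0.073% on HFD. The lowest adjusted p of edgeR was 0.199, for Cxcl14 in eWAT with C57n on chow. For Ccl2 the exchange changed the log2 level by -0.50 ± 0.81 (C57n) and 0.48 ± 0.87 (C3Hn) in eWAT on chow, and by -0.75 ± 0.88 and 0.52 ± 0.86 on HFD. With these SEs a 2-fold difference in Ccl2 was not detectable.

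The diet response was then compared between mitochondrial genomes, in 4 contrasts with 124 tests on the ligands. By edgeR's quasi-likelihood test 0 were called, 5 had an unadjusted p under 0.05, and DESeq2 called 0, with a background of 0% in each contrast. The difference of the Ccl2 response was -0.25 ± 1.19 (C57n) and 0.03 ± 1.22 (C3Hn) in eWAT, and -0.54 ± 0.80 and -0.41 ± 0.86 in iWAT, on the log2 scale. The lowest adjusted p was 0.648.

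Between the depots, eWAT minus iWAT, most called ligands were lower in eWAT. On chow 14 of 32 were called (43.8%, background 35.7%), 3 higher and 11 lower, and on HFD 15 (46.9%, background 26.6%), 3 higher and 12 lower. The ligands of lymphoid tissue led on chow. Ccl19 ran at 0.537, 2.42 and 14.7 CPM in eWAT and at 0.666, 47.6 and 110.9 in iWAT (log2 fold change -4.13 ± 0.64, adjusted p = 8.691e-07). Ccl22 ran at 0.248, 1.75 and 3.16 against 1.03, 23.2 and 52.9 (-3.74 ± 0.56), and Ccl5 at 1.24, 2.97 and 9.20 against 2.25, 44.8 and 89.8 (-3.44 ± 0.49). The lowest iWAT libraries lay within the eWAT range in all 3.
Cxcl13 (-3.32, medians of 1.20 and 53.8 CPM), Ccl21b (-2.15), Ccl1 (-2.45), Ccl12 (-1.37), Cxcl16 (-0.71) and Cxcl12 (-0.56) were lower in eWAT too. Cxcl12 had medians of 93.2 CPM in eWAT and 145.1 in iWAT on chow. Cx3cl1 (1.05), Cxcl5 (1.89) and Ccl27 (0.94) were higher in eWAT, Cx3cl1 with a median of 6.32 against 4.38 CPM. Without the epithelial libraries Cx3cl1 was at 0.08 (adjusted p = 0.746), and Ccl2 (1.0, adjusted p = 0.0172), Ccl9 (0.88) and Ccl6 (0.73) passed the threshold. The call of Cxcl5 was lost without the second C3Hn:C3Hmt eWAT library.

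Within iWAT, levels of 6 ligands did not overlap between the 14 libraries with lymph node RNA and the other 16. Ccl21b ran from 194.9 to 892.1 CPM in the former and from 0 to 61.2 in the latter. Ccl19 ran from 35.5 to 298.5 against 0.535 to 17.0, Cxcl13 from 34.5 to 301.5 against 0.865 to 28.7, and Ccl5 from 29.5 to 232.9 against 2.25 to 12.9. Ccl22 ran from 11.9 to 115 and Cxcl16 from 18.6 to 104.3 CPM, against 0.861 to 10.9 and 9.13 to 16.8. How many of all genes separate these libraries was not counted, so the 6 are not set against a background. CCL19, CCL21 and CXCL13 are the ligands by which lymph nodes sort T and B cells.

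Without those libraries the depot contrast on chow, with 6.96% of all genes called, kept 3 of its 14 calls, which were Cxcl14 (-3.34, adjusted p = 7.941e-14), Ccl8 (-1.53, adjusted p = 0.0245) and Ccl27 (1.22, adjusted p = 0.0103). Ccl5 was then at -0.11 (adjusted p = 0.987) and Cxcl13 at -0.31 (adjusted p = 0.906), and Ccl19, Ccl21b, Ccl22 and Cxcl16 changed sign, without a call. Of 12 lymphocyte markers all 12 were lower in eWAT on both diets, where 2999 of all 18605 genes were lower on chow and 2896 on HFD.

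**Figure D5:**
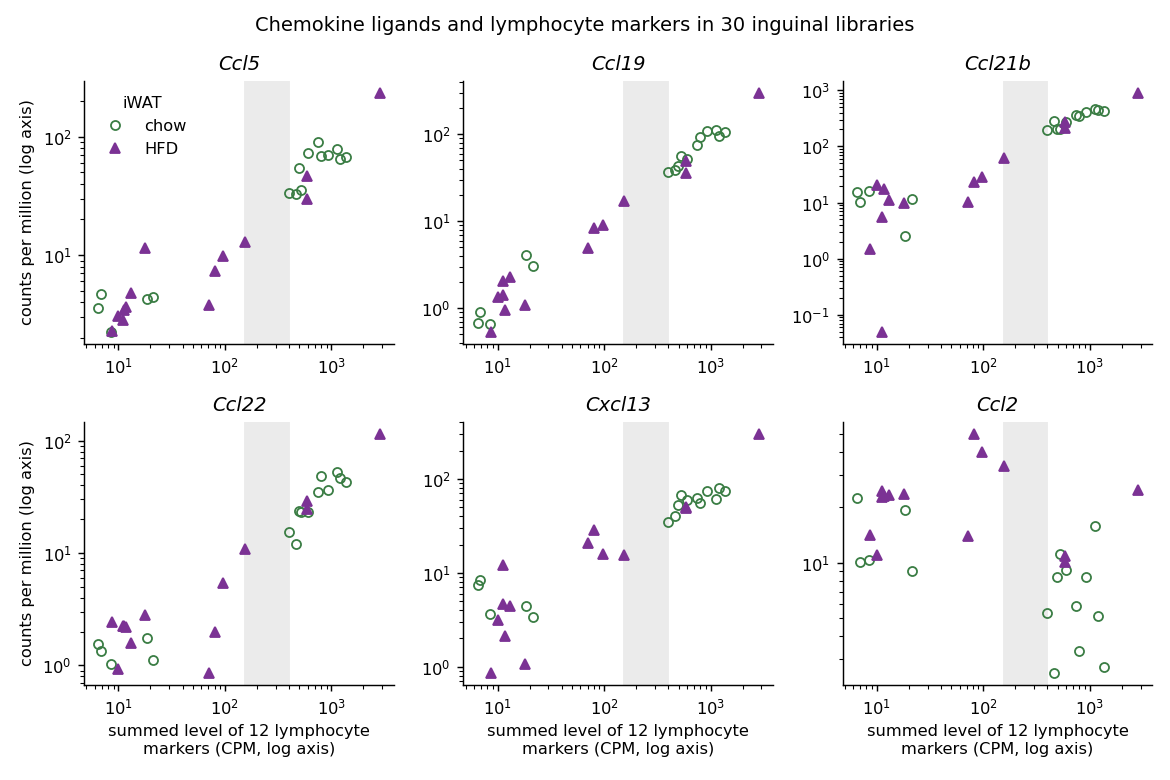
Levels of Ccl5, Ccl19, Ccl21b, Ccl22, Cxcl13 and Ccl2 in the 30 iWAT libraries (CPM, log axis) against the summed level of 12 lymphocyte and lymph node markers (CPM, log axis). Open circles are chow and filled triangles HFD libraries, and the grey band from 155 to 398.8 CPM holds no library. The first 5 ligands are separated by the band, and Ccl2 is not.

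Cxcl14 was lower in eWAT on both diets with and without those libraries (-3.34 and -2.95 without them). It ran at 2.86, 13.1 and 31.3 CPM in eWAT and at 27.5, 85.9 and 185.2 in iWAT on chow (-2.86 ± 0.21, adjusted p = 9.905e-17), and on HFD at 2.63, 6.75 and 89.7 against 45.3, 80.6 and 154.2 (-2.81 ± 0.22, adjusted p = 1.615e-15). Ccl8 was lower in eWAT on both diets as well, by 1.82 and 1.61. Of these 2 ligands, Cxcl14 had the larger difference.

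On HFD 3 ligands were higher in eWAT than in iWAT, and Ccl7 had no call (adjusted p = 0.164). Ccl9 was higher by 1.08 ± 0.27 (adjusted p = 0.00158), Ccl2 by 1.24 ± 0.37 (adjusted p = 0.00836) and Ccl6 by 0.80 ± 0.28 (adjusted p = 0.0276) on the log2 scale. Without the lymph node libraries Ccl2 was at 1.20 (adjusted p = 0.0299) and Ccl9 at 0.98 (adjusted p = 0.0184), and Ccl6 lost its call. Without the third C57n:C3Hmt HFD library of eWAT, Ccl2 was at 0.87 (adjusted p = 0.0683). Cxcl13 was lower, at 0.0445, 0.667 and 4.95 CPM against 0.865, 13.9 and 301.5 (-4.61 ± 0.71, adjusted p = 1.296e-06), and kept a call at -2.22 (adjusted p = 0.00373). Ccl1 was lower at very low levels, with a median of 0 CPM in eWAT and 0.0792 in iWAT (-2.80 ± 0.78). Ccl5, Ccl8, Ccl12, Ccl19, Cxcl9, Ccl22, Cxcl11, Ccl24 and Cxcl10 were lower too, Ccl5 at 1.17, 2.81 and 5.73 CPM against 2.31, 6.07 and 232.9. The third C3Hn:C3Hmt HFD library of iWAT holds the most lymph node RNA and is the sole library of its run. Without it Ccl19 (-1.02, adjusted p = 0.194) and Ccl22 (-0.96, adjusted p = 0.161) lost their calls. Cxcl11 lost its call without the first C57n:C57mt HFD library of iWAT. With the animal as a block, Ccl5 (adjusted p = 0.0693), Ccl19 (0.422) and Ccl22 (0.378) lost their calls on HFD, and Ccl21b (0.0987) and Cxcl5 (0.115) lost theirs on chow.

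Of 15 tested receptors in the chow contrast, Ccr7 (-4.49), Ccr6 (-4.95), Ccr9 (-4.02), Ccr8 (-3.09), Ccr10 (-2.72), Ccr4 (-2.63), Cxcr6 (-1.82), Xcr1 (-1.58), Cxcr3 (-1.40) and Cxcr4 (-1.34) were lower in eWAT and Ccr1 (0.74) higher. On HFD 4 were higher in eWAT, among them Ccr2 (0.90), Ccr1 (1.15) and Cx3cr1 (1.18), and 8 were lower. Of all 18605 genes tested, 3641 were higher and 2999 lower in eWAT on chow, and 2052 higher and 2896 lower on HFD.

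Most of the ligands called between muscle and a depot on chow were lower in muscle. Against eWAT 21 of 32 were called (65.6%, background 81.4%), 17 lower and 4 higher, and against iWAT 25 (78.1%, background 79.5%), 22 lower and 3 higher. Of all 18605 genes tested, 9304 were lower in muscle than in eWAT and 8697 lower than in iWAT. Against eWAT the median log2 fold change was -1.065 over the ligands and -0.54 over all genes. Against iWAT these medians were -1.787 and -0.36. Cxcl9 ran at 0.373, 1.43 and 3.01 CPM in muscle and at 8.89, 38.5 and 81.0 in eWAT, without overlap (log2 fold change -4.60 ± 0.25, adjusted p = 1.906e-24). Ccl6 (-3.33), Ccl9 (-3.13), Ccl5 (-3.08), Ccl8 (-2.51), Cxcl10 (-2.27), Cxcl16 (-2.17), Ccl2 (-2.09), Ccl12 (-1.60) and Cxcl4 (-1.52) were among the 12 with the smallest adjusted p, and Ccl4 (-1.85) completed them on the lower side. With the animal as a block Ccl5 (adjusted p = 0.0605) lost its call, as did Ccl17, Ccl22 and Cxcl13.
Cxcl14 was the exception among these, higher in muscle at 74.1, 109.4 and 126.6 CPM against 2.86, 13.1 and 31.3 in eWAT, without overlap (3.23 ± 0.21, adjusted p = 7.306e-21). Against iWAT the 12 with the smallest adjusted p were all lower in muscle: Cxcl9 (-4.96), Ccl8 (-4.32), Cxcl16 (-2.89), Ccl5 (-6.52), Ccl6 (-2.96), Ccl9 (-2.60), Ccl22 (-6.58), Cxcl10 (-2.80), Ccl12 (-2.97), Cxcl13 (-6.42), Cxcl4 (-1.70) and Ccl19 (-4.81). Without the libraries with lymph node RNA, Ccl5 was at -3.25, Ccl22 at -2.79, Cxcl13 at -3.47 and Cxcl16 at -1.68, all called, and Ccl19 at -0.05 (adjusted p = 1). Cxcl12 stood at 111 ± 11 CPM in muscle (SD, n = 16), 94.1 ± 32.1 in eWAT and 138.2 ± 32.8 in iWAT on chow, with a log2 difference of 0.25 ± 0.12 from eWAT (adjusted p = 0.04) and -0.31 ± 0.11 from iWAT (adjusted p = 0.0105).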

How the data were processed

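The deposited tables hold expected counts per gene, made by the authors with RSEM on mm9, per the submitters' processing notes, which also name DESeq2 1.10.1, and a deposited table gives the percent G+C of each library's aligned reads. Mapping used a proprietary algorithm, per the labels' series text, with no version given in the sources used here. Tables for chow and HFD list 22423 and 21983 genes, and a gene absent from 1 table was taken as 0 there. Expected counts were rounded to whole numbers and tested with edgeR 4.0.16 (R 4.3.3), with TMM factors, filterByExpr (minimum count 10, minimum total 15), the quasi-likelihood F test and Benjamini-Hochberg adjustment over all genes tested. Each tissue had its own fit with 1 coefficient per group, and contrasts between tissues came from 1 fit of 75 libraries. SEs were taken from the fold change and F, and CPM uses the TMM factors of the 75 libraries. Alternatives were DESeq2 1.42.0, RLE factors, no filter, the run, epithelial or lymphocyte markers as covariates, G+C and length trends removed, marked libraries left out, each library left out, and the animal as a block (limma 3.58.1). Leaving out the libraries with epithelial or lymph node markers was added after the marker levels had been seen. Tested on simulated data, the eWAT diet contrast recovered 67% of 2-fold and 87% of 4-fold changes.

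The ligands and lists were chosen with earlier results of these data known. In each comparison every called ligand is named, or the 12 with the smallest adjusted p where more were called. Library values are given for the 3 largest changes and for Ccl2, Ccl5, Ccl21a, Cxcl12, Cxcl13 and Cx3cl1, and those of other ligands were chosen after their values were seen. Depth limits counting error only for ligands under a few counts. P-values of the contrasts measure the spread between animals of a group. Those of the correlations rest on all libraries of a depot and diet, with genotypes pooled. Values of 1 listed receptor are not reported here.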

Additional observations from a re-analysis of the deposited data

Results flagged for a closer look

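In 15 ligands and 176 groups of 4 libraries, 17 single libraries stood far from the other 3 of their group by Dixon's criterion. Chance alone flags about 1 in 20 groups. In iWAT on chow 10 of them lay in 3 libraries with little lymph node RNA whose group mates had it. The second library of C3Hn:C57mt had Ccl19 at 0.671, Ccl5 at 3.59, Ccl22 at 1.54 and Cxcl13 at 7.38 CPM. The first library of C57n:C3Hmt had Ccl19 at 4.11, Ccl5 at 4.26, Ccl22 at 1.76 and Cxcl13 at 4.46 CPM. The second library of C57n:C57mt had Ccl19 at 3.10 and Cxcl13 at 3.37 CPM.

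In eWAT, Ccl9 stood at 17.5 CPM in the second C3Hn:C57mt chow library, against 156.9 to 178.9 in the other 3, and that library has epithelial markers at 2645 CPM. Ccl27 was the highest of its group at 0.876 CPM in the third C3Hn:C3Hmt HFD library of eWAT and at 0.587 in the third C3Hn:C3Hmt chow library of iWAT. Ccl2 was the highest at 33.6 CPM in the first C57n:C57mt HFD library of iWAT, and at 1.77 CPM it stood apart in the fourth C3Hn:C3Hmt muscle library. In muscle Cx3cl1 stood apart at 6.94 CPM in the third C3Hn:C57mt library and Cxcl13 at 0.128 CPM in the second C57n:C57mt library.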

How the results depend on the processing

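Numbers of called ligands moved by over 1.5 times in these settings. With DESeq2 they were 28 for diet within genotypes (18 as reported), 10 for diet by nucleus (0), 13 for nucleus in eWAT on chow (6) and 2 for mitochondrial exchange (0). Its shares of all genes were 8.45% to 22.4% within genotypes, 6.5% (eWAT) and 9.32% (iWAT) for diet by nucleus and 20.5% for nucleus in eWAT on chow. RLE factors gave 1 for diet by nucleus. With the run as a term they were 4 for diet in eWAT (14) and 6 for nucleus in iWAT on HFD (10). With trends over G+C content and length removed they were 3 for diet in iWAT (6), 4 within genotypes and 1 for diet by nucleus. The epithelial covariate gave 7 for diet in eWAT and the lymphocyte covariate 7 for diet by nucleus. Without the epithelial libraries exchange had 1, Cx3cl1 in eWAT with C3Hn on HFD. Without the lymph node libraries there were 0 for diet in iWAT, 7 within genotypes, 1 for nucleus in iWAT on chow and 3 for the depots on chow (14), and signs turned for eWAT minus iWAT on chow in Ccl19 (0.69), Ccl21b (2.47), Ccl22 (0.11) and Cxcl16 (0.56), on HFD in Ccl19 (0.20), and for muscle minus iWAT in Ccl21b (2.04) and Cxcl12 (0.10). The cause was not tested.

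Leaving out each library in turn gave 10 to 15 for diet in eWAT, 6 to 12 in iWAT, 11 to 22 within genotypes, 0 to 10 for diet by nucleus, 6 to 11 and 6 to 13 for nucleus in eWAT on chow and iWAT on HFD, and 0 to 4 for depot by diet. In iWAT the third C3Hn:C3Hmt HFD library gave the 12. With the animal as a replicate block the counts were 15 and 12 for the depots on chow and HFD, 18 and 24 for muscle minus eWAT and iWAT, and 0 for depot by diet. Low counts limit Ccl1, Ccl3, Ccl17, Cxcl5 and Cxcl11.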
